A study of Homo sapiens with 6 samples.

Results

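Mucin transcripts were examined in 21NT cells stably transfected with an empty vector or with either TBX3 isoform. The 7 mucins considered were *MUC1*, *MUC4*, *MUC7*, *MUC13*, *MUC15*, *MUC16* and *MUC20*, chosen by gene symbol as membrane and secreted mucins, with the near absence of *MUC7* transcript in the TBX3iso2 line already known. Of these, 6 were found among the 20824 genes of the deposited table, and *MUC15* was not analysed here. Since the choice used these same comparisons, the values of the 6 mucins are given as a description, without p-values.

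21NT is an established non-invasive human breast cancer line that expresses little TBX3, and TBX3 is a T-box transcription factor made as isoforms TBX3iso1 and TBX3iso2. The 3 lines were 21NT carrying the empty pcDNA3.1 vector (EV), TBX3iso1 in the same vector, or TBX3iso2 in the same vector. All were kept under G418 selection in a serum-containing medium with insulin, epidermal growth factor and hydrocortisone, and were harvested near confluence for stranded mRNA libraries, 2 per line. Each line was 1 pool of resistant cells, so the 2 libraries of a line are not separate transfections, and the sources do not say whether they came from separate cultures. SDs, SEs and p-values therefore measure only the spread between these libraries, which may be technical.

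Mucins are glycoproteins whose serine- and threonine-rich repeats carry dense O-linked sugar chains begun by GALNT enzymes. Membrane mucins (MUC1, MUC4, MUC13, MUC15, MUC16, MUC20) stand on the apical surface of epithelial cells, where their extracellular part can be shed. MUC7 is a small secreted mucin best known from saliva, whereas the gel-forming mucins (MUC2, MUC5AC, MUC5B, MUC6, MUC19) assemble into mucus. In breast epithelium MUC1 is the main membrane mucin, and its shed form is measured in serum as CA15-3.

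Expression was deposited as RPKM, that is, reads scaled by the length of the transcript and the depth of the library, and the 6 libraries held between 43176600 and 54512400 alignments. *TBX3* stood at 8.38 ± 0.199 RPKM in EV, 12.3 ± 1.23 with TBX3iso1 and 16.5 ± 1.41 with TBX3iso2 (SD, n = 2). It was higher than EV in every library of both isoform lines, in the direction of the labels, although its log2 fold change of 0.54 with TBX3iso1 was below the 1.5-fold criterion used here. The 8 luminal epithelial markers (keratins, *EPCAM*, *CDH1*, *ERBB2*, *CLDN4*) summed to between 3290 and 3407 RPKM in EV, between 2700 and 2956 with TBX3iso1 and between 3059 and 3432 with TBX3iso2. The TBX3iso1 libraries thus lay below EV in this sum, and those of TBX3iso2 overlapped with EV. The 6 basal markers summed to between 265 and 288 RPKM in EV, between 386 and 426 with TBX3iso1 and between 321 and 362 with TBX3iso2.

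The summed markers of 3 other cell types also differed between the lines, as the mucins did or in the opposite direction. The 6 endothelial markers summed to between 7.41 and 7.79 RPKM in EV, between 1.42 and 1.49 with TBX3iso1 and between 1.32 and 1.49 with TBX3iso2. This sum was almost all *PECAM1*, and 3 of the 6 markers were below 0.1 RPKM in every library. The 6 leukocyte markers in the table summed to between 52.7 and 54.9, 36.7 and 36.9, and 36.4 and 36.7 RPKM in the 3 lines, carried by *CD68* (44.1 and 43.2 RPKM in EV) and *CD14* (10.7 and 9.44), with 3 of the 6 below 0.1 RPKM everywhere. The 8 fibroblast markers summed to between 4.73 and 5.01, 8.19 and 8.84, and 7.2 and 7.62 RPKM, carried by *COL1A1*, with 3 of the 8 below 0.1 RPKM. No listed marker was at 0 in every library, and the part of these levels in the mucin differences was not tested. In bulk libraries, fewer cells expressing a mucin and less transcript per cell cannot be told apart.

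The genes lie apart in the genome except for one pair. In GRCh37 coordinates of the GENCODE annotation, *MUC1* is at chr1:155158300-155162707 on the minus strand, *MUC7* at chr4:71296209-71348714 on the plus strand and *MUC13* at chr3:124624289-124672663 on the minus strand. *MUC16* is at chr19:8959520-9121066 on the minus strand. *MUC20* (chr3:195447755-195467994, plus strand) and *MUC4* (chr3:195473636-195538844, minus strand) converge with their 3′ ends 5.64 kb apart. All 6 are annotated as protein-coding.

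TBX3 binds T-box elements, so the promoters of these mucins were searched on both strands. The motifs were the T-box sequence GGTGTGA, its core AGGTGT and the E-box CAGGTG bound by Snail-family factors. The E-box was added after the sequences had been seen, and it overlaps the T-box core wherever CAGGTGT occurs. RefSeq starts were matched for 5 of the 6 mucins (*MUC1*, *MUC4*, *MUC7*, *MUC13*, *MUC16*). The 250 bases before the start are shown 5′ to 3′ on the strand of the gene (GRCh38.p14). They are given for *MUC1*, the most abundant mucin, and for *MUC16*, where a T-box core was found. They are also given for *MUC7*, which averaged 2.84 RPKM in EV and was near 0 with TBX3iso2. *MUC1* and *MUC16* have 2 RefSeq starts each and *MUC7* has 3, and not every window is shown. Capitals mark motif matches.
MUC1, 1 of 2 starts (chr1:155192916-155193165, minus strand): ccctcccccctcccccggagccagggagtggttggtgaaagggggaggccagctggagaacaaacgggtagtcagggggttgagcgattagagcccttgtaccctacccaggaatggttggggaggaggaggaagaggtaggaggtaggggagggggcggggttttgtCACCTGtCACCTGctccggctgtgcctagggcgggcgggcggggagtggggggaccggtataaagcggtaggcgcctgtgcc
MUC7, first start (chr4:70430242-70430491, plus strand): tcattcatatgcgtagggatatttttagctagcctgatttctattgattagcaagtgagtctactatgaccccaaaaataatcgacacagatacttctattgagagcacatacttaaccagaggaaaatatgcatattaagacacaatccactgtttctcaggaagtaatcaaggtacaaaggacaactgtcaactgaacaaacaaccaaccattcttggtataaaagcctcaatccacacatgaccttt
MUC7, second start (chr4:70471708-70471957, plus strand): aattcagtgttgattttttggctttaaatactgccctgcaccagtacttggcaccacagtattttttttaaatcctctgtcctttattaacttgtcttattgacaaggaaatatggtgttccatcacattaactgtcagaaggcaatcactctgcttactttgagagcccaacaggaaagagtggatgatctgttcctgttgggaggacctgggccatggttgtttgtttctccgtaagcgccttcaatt
MUC16, 1 of 2 starts (chr19:9010410-9010659, minus strand): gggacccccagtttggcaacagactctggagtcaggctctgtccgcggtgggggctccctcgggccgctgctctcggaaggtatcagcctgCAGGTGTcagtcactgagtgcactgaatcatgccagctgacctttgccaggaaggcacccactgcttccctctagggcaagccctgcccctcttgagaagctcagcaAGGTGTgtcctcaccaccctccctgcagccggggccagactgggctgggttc

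The *MUC1* window held the E-box in reverse orientation, written CACCTG above, at 82 and 75 bases before the start, and the window of the other start, which overlaps it, held the same sites at 88 and 81 bases. Of 35116 RefSeq promoters of the same length, 17.5% held at least 1 CAGGTG and 2.53% at least 2. The *MUC16* window shown held AGGTGT at 158 and 52 bases before the start, the first of them overlapping a CAGGTG. The window of the other *MUC16* start (chr19:9065752-9066001, minus strand) held none of the motifs. Of all promoters, 9.57% held at least 1 AGGTGT and 0.646% at least 2. The full T-box sequence GGTGTGA, held by 2.76% of all promoters, was in none of the mucin promoters searched. None of the motifs was in the windows of *MUC4*, *MUC7* or *MUC13*. A match is a description of the letters in the window and not a bound site.

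Tests were run across genes on log2(RPKM + 0.1) with limma for the 12805 genes that averaged 0.5 RPKM or more. A gene was called changed at a Benjamini-Hochberg adjusted p below 0.05 with a fold change above 1.5. Only *MUC1* and *MUC7* of the 6 mucins reached the mean of 0.5 RPKM. Against EV, the criteria were met downwards by *MUC1* alone with TBX3iso1, where 14.1% of all tested genes were called lower. They were met by both mucins with TBX3iso2, where 12.3% were called lower. Between TBX3iso2 and TBX3iso1 they were met downwards by *MUC7*, against 2.82% of tested genes. Both isoforms are compared with the same 2 EV libraries, and nothing is read from these shares because the mucins were chosen on these comparisons.

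*MUC1* was the dominant mucin transcript of every line and was lower with both isoforms. It stood at 169 and 172 RPKM in the EV libraries, 52.2 and 55.3 with TBX3iso1, and 47.8 and 47.5 with TBX3iso2. Both isoform lines lay far below EV, and the TBX3iso2 libraries lay just below those of TBX3iso1. The means were 171 ± 2.08, 53.7 ± 2.22 and 47.6 ± 0.204 RPKM (SD, n = 2), 3.18-fold lower with TBX3iso1 and 3.58-fold lower with TBX3iso2. On the log2(RPKM + 0.1) scale the differences from EV were -1.67 and -1.84 (SE 0.0716), and the difference of TBX3iso2 from TBX3iso1 was -0.17, which did not meet the criteria. Ranked by mean RPKM among the 20824 genes, *MUC1* was at 288 in EV, 1252 with TBX3iso1 and 1455 with TBX3iso2, still above 93% of genes in the last.

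*MUC7* showed the largest difference between the isoforms. It stood at 3.05 and 2.64 RPKM in EV, 2.24 and 1.74 with TBX3iso1, and 0 and 0.0209 with TBX3iso2. The TBX3iso1 libraries lay below both EV libraries without reaching the criteria, and TBX3iso2 lay near 0. The means were 2.84 ± 0.292, 1.99 ± 0.352 and 0.0105 ± 0.0148 RPKM (SD, n = 2). With TBX3iso1 the mean was 0.702 of EV, a log2 difference of -0.50 (SE 0.19). That difference ranged from -0.67 to -0.32 when a TBX3iso1 library was left out and was -0.29 after quantile normalization. With TBX3iso2 the log2 difference was -4.74 from EV and -4.24 from TBX3iso1 (SE 0.19). The size of these differences depends on the constant added before the logarithm: from EV it was -1.92 with 1 RPKM and -7.34 with 0.01 RPKM. *MUC7* ranked 9608 in EV, 10103 with TBX3iso1 and 17629 with TBX3iso2.

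Low RPKM values could be traced to small whole numbers of reads. For a given gene, values in different libraries are multiples of what 1 read is worth, and among 4558 genes with a mean below 0.2 RPKM, 3827 (84%) gave whole numbers within 0.02 in all libraries. These are the smallest whole numbers that give the values, so the true numbers could be a common multiple of them, and their intervals cover counting error only. For *MUC7* they were 374 and 255 reads in EV, 254 and 192 with TBX3iso1, and 0 and 2 with TBX3iso2. Summed over the 2 libraries, TBX3iso2 held 2 reads (95% Poisson interval 0.242 to 7.22) against 629 in EV. Scaled for depth, this was a ratio to EV of 0.00327 (95% interval 0.000395 to 0.0118). The corresponding ratio for TBX3iso1 was 0.672 (0.594 to 0.759).

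**Figure D1:**
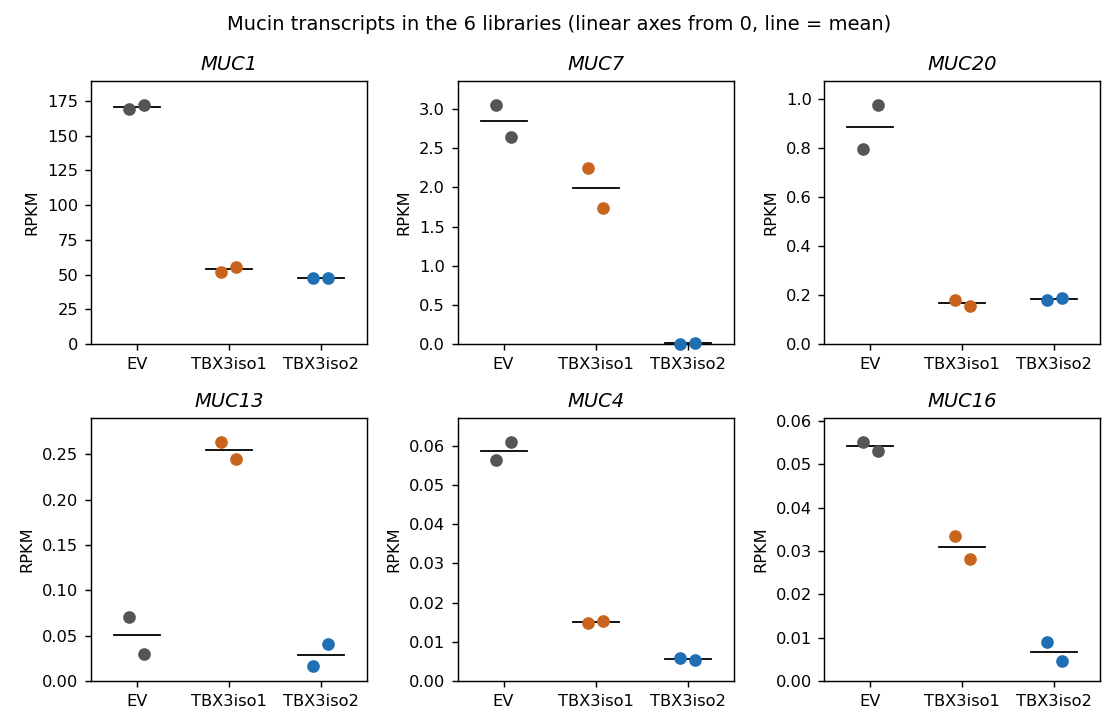
RPKM of the 6 mucins in each library (points) of EV, TBX3iso1 and TBX3iso2, with the mean of the 2 libraries as a line and linear axes that start at 0 and differ between panels. *MUC7* stands at 0 and 0.0209 RPKM with TBX3iso2 but at 2.24 and 1.74 with TBX3iso1, whereas *MUC1* and *MUC20* are low with both isoforms and *MUC13* is highest with TBX3iso1.

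The membrane mucin MUC20, which binds the receptor MET, was the next most abundant in EV. *MUC20* stood at 0.794 and 0.974 RPKM in EV, 0.18 and 0.156 with TBX3iso1, and 0.178 and 0.19 with TBX3iso2. Both isoform lines lay below EV, and they overlapped each other. The means were 0.884 ± 0.127, 0.168 ± 0.0169 and 0.184 ± 0.00853 RPKM (SD, n = 2), 5.27-fold and 4.79-fold lower than EV. In reads this was 91 and 88 in EV, 19 and 16 with TBX3iso1, and 19 and 17 with TBX3iso2. The ratios to EV were 0.185 (95% interval 0.125 to 0.267) and 0.207 (0.14 to 0.297).

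*MUC4* and *MUC16* were below 0.1 RPKM in every library and lowest with TBX3iso2. MUC4 is a large membrane mucin that associates with ERBB2, and MUC16 carries the CA125 antigen and binds mesothelin. *MUC4* stood at 0.0564 and 0.0611 RPKM in EV, 0.0149 and 0.0154 with TBX3iso1, and 0.00593 and 0.0053 with TBX3iso2. *MUC16* stood at 0.0552 and 0.053, 0.0335 and 0.0282, and 0.00888 and 0.00464 RPKM. For both genes the libraries were ordered EV, TBX3iso1, TBX3iso2 without overlap. The means of *MUC4* were 3.88-fold lower than EV with TBX3iso1 and 10.5-fold lower with TBX3iso2. Those of *MUC16* were 1.75-fold and 8.0-fold lower. *MUC4* rested on 41 and 35 reads in EV, 10 and 10 with TBX3iso1, and 4 and 3 with TBX3iso2. Its ratios to EV were 0.249 (95% interval 0.144 to 0.412) and 0.0946 (0.0368 to 0.205). *MUC16* rested on 107 and 81, 60 and 49, and 16 and 7 reads. Its ratios to EV were 0.549 (0.43 to 0.699) and 0.126 (0.0777 to 0.194).

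*MUC13*, a membrane mucin best known from the intestine, went the other way with TBX3iso1. It stood at 0.0707 and 0.0299 RPKM in EV, 0.264 and 0.245 with TBX3iso1, and 0.0169 and 0.0404 with TBX3iso2. The TBX3iso1 libraries lay above all others, and those of EV and TBX3iso2 overlapped. The means were 0.0503 ± 0.0289, 0.255 ± 0.0132 and 0.0286 ± 0.0166 RPKM (SD, n = 2). The mean with TBX3iso1 was 5.06 times that of EV, and that with TBX3iso2 was 8.89-fold lower than with TBX3iso1. The reads were 9 and 3 in EV, 31 and 28 with TBX3iso1, and 2 and 4 with TBX3iso2. The ratio to EV was 4.66 (95% interval 2.48 to 9.52) with TBX3iso1 and 0.514 (0.158 to 1.48) with TBX3iso2. These intervals cover the counting error of the summed reads and not the spread between libraries.

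Both libraries lay below both EV libraries for 5 of the 6 mucins with TBX3iso1 (38.3% of all 20824 genes lower, 26.8% higher) and for 5 of 6 with TBX3iso2 (33.7% lower, 28.6% higher). These were *MUC1*, *MUC4*, *MUC7*, *MUC16* and *MUC20* in each case, and 27.1% of all genes were lower than EV with both isoforms in this way. *MUC13* was the exception, higher with TBX3iso1 and overlapping with EV in TBX3iso2. Between the isoforms, 5 of 6 were lower with TBX3iso2 (19.3% of all genes lower, 26.7% higher), and *MUC20* overlapped. When the filter on low values was removed, so that all 6 entered the fit, *MUC1* and *MUC20* met the criteria downwards and *MUC13* upwards with TBX3iso1, where 10.9% of all genes were then called lower and 5.47% higher. With TBX3iso2, *MUC1*, *MUC4*, *MUC7* and *MUC20* met them downwards (9.92% of genes lower, 6.38% higher). Between the isoforms *MUC7* and *MUC13* met them, lower with TBX3iso2 (1.81% lower, 1.87% higher). *MUC16* met them in no comparison, with 0.1 RPKM added to values below that constant.

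The other mucin genes were examined from a list of 15, of which 13 were in the table and 8 had means below 0.1 RPKM in every line. Together with the 6 above, the 19 mucin genes summed to 187 and 191 RPKM in EV, 57.8 and 60.0 with TBX3iso1, and 51.3 and 52.4 with TBX3iso2. *MUC1* made up between 90.1% and 93.1% of that sum in every library. *MUC7* made up 1.63% and 1.38% in EV, 3.88% and 2.91% with TBX3iso1, and 0% and 0.04% with TBX3iso2. Its share of mucin transcript was therefore larger with TBX3iso1 than in EV, while its RPKM was lower.

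Only *MUCL1* and *OVGP1* of these 13 were tested. *MUCL1*, which encodes a small mucin of breast epithelium, stood at 11.9 and 13.0 RPKM in EV, 1.95 and 1.44 with TBX3iso1, and 2.39 and 3.68 with TBX3iso2. It fell with both isoforms, by 2.82 on the log2 scale with TBX3iso1 (SE 0.21, limma adjusted p = 6.53e-05) and by 2.03 with TBX3iso2 (adjusted p = 0.000267). It was higher with TBX3iso2 than with TBX3iso1 by 0.78 (adjusted p = 0.045), and this call was lost in 8 of 13 alternatives. Among them were the omission of EV replicate 1 (0.78) or 2 (0.78), of TBX3iso1 replicate 2 (0.58) and of TBX3iso2 replicate 2 (0.48). *OVGP1*, the oviductal glycoprotein, stood at 0.958 and 1.15, 0.579 and 0.776, and 0.694 and 0.686 RPKM, and its log2 differences of -0.58 and -0.54 were below the fold criterion.

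The gel-forming mucins *MUC5B* and *MUC5AC* were expressed at low levels in EV and lower in both isoform lines. *MUC5B*, found in saliva and airway mucus, stood at 0.727 and 0.65 RPKM in EV, 0.082 and 0.0675 with TBX3iso1, and 0.053 and 0.0373 with TBX3iso2. Its means were 9.2-fold and 15.3-fold lower than EV, and without the filter both differences were called (limma adjusted p = 0.00149 and 0.00115). *MUC5AC*, of airway and stomach, stood at 0.236 and 0.222, 0.0331 and 0.0255, and 0.0492 and 0.0441 RPKM. Its means were 7.83-fold and 4.92-fold lower, also called without the filter (limma adjusted p = 0.00165 and 0.00202). The reads behind them were 576 and 406 in EV for *MUC5B* against 23 to 60 in the isoform libraries, and 62 and 46 for *MUC5AC* against 6 to 12.

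The remaining mucins were near the limit of detection. *MUC3A* stood at 0.0968 and 0.0786 RPKM in EV, 0.21 and 0.164 with TBX3iso1, and 0.104 and 0.114 with TBX3iso2, and rose with TBX3iso1 in the fit without the filter (limma adjusted p = 0.0252). *MUC19* stood at 0.00637 and 0.00577, 0.0276 and 0.0315, and 0.0147 and 0.0175 RPKM, on 5 to 31 reads, and was not called. *MUC2*, *MUC21* and *MUC22* lay below EV with both isoforms on at most 11 reads in a library, *DPCR1* did so with TBX3iso1, *MUC12* lay above EV with TBX3iso2, and *MUC6* and *MUC17* had at most 1 read in any library. Of all 13, 8 lay below EV and 2 above it with TBX3iso1, beside 38.3% and 26.8% of all genes. The counts with TBX3iso2 were 7 below and 3 above, beside 33.7% and 28.6%.

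**Figure D2:**
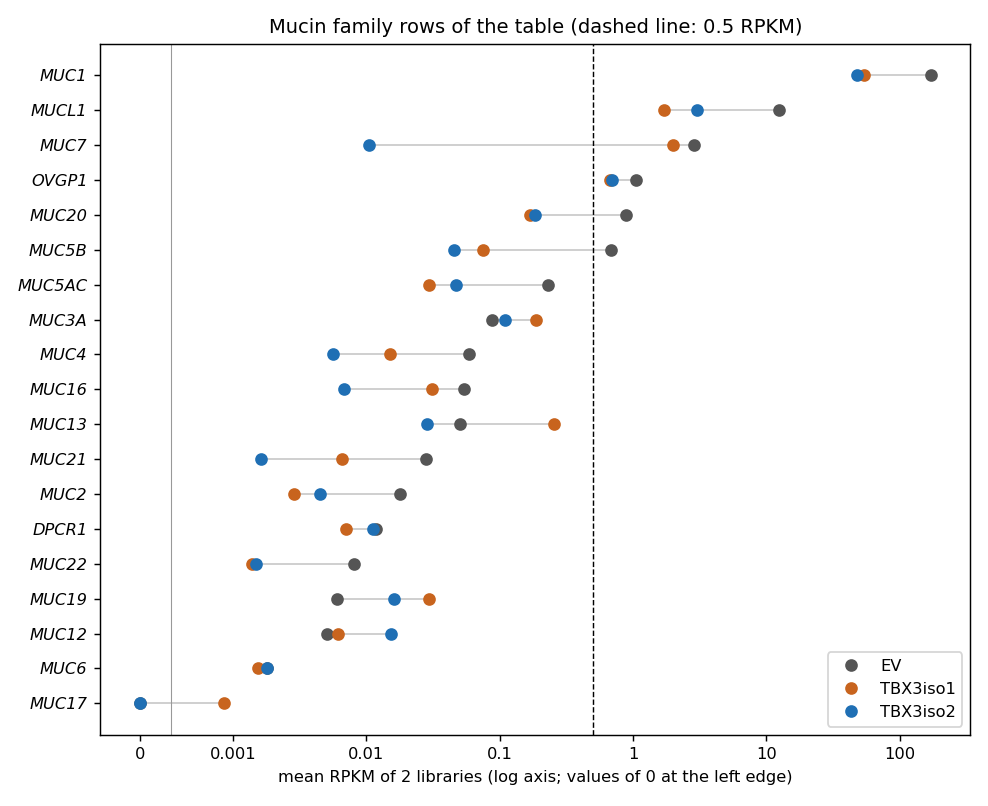
Mean RPKM of the 2 libraries of each line for the 19 mucin genes in the table, on a log axis. Means of 0 are placed to the left of the grey line. The dashed line is at 0.5 RPKM, the smallest mean over all 6 libraries at which a gene was tested. *MUC1* and *MUCL1* lie highest, *MUC7* spans the widest distance, and the EV points of *MUC6* and *MUC17* lie behind those of TBX3iso2.

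The genes whose pattern over the 6 libraries was most like that of each tested mucin were named by the Euclidean distance of log2(RPKM + 0.1) values centred on the EV mean. The nearest to *MUC1* were *CRELD1* (distance 0.152), *VILL* (0.213) and *SLC29A3* (0.219). *CRELD1* averaged 4.66, 1.39 and 1.26 RPKM in EV, TBX3iso1 and TBX3iso2, *VILL* 13.9, 4.42 and 3.46, and *SLC29A3* 13.7, 4.39 and 4.08. Each of them was thus lower with both isoforms by about as much as *MUC1*.

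*MUC7* had no such close neighbour. The nearest was *BST2*, an interferon-induced membrane protein, at a distance of 1.33, with 20.0 and 20.7 RPKM in EV, 7.14 and 10.3 with TBX3iso1, and 0.835 and 0.912 with TBX3iso2. *PDGFRA*, a receptor tyrosine kinase best known from mesenchymal cells, followed at 2.28, with 8.08 and 7.98, 3.63 and 3.28, and 0.0111 and 0.0132 RPKM. *NDUFA4L2*, a hypoxia-responsive mitochondrial protein, stood at 2.38, with 8.58 and 7.89, 3.26 and 3.1, and 0.819 and 0.66 RPKM. All were lowest with TBX3iso2, and all differed from *MUC7* in being further below EV with TBX3iso1, with log2 differences of -1.24, -1.20 and -1.35 against -0.50 for *MUC7*. These distances are descriptions over 6 libraries, picked as the smallest of all tested genes.

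**Figure D3:**
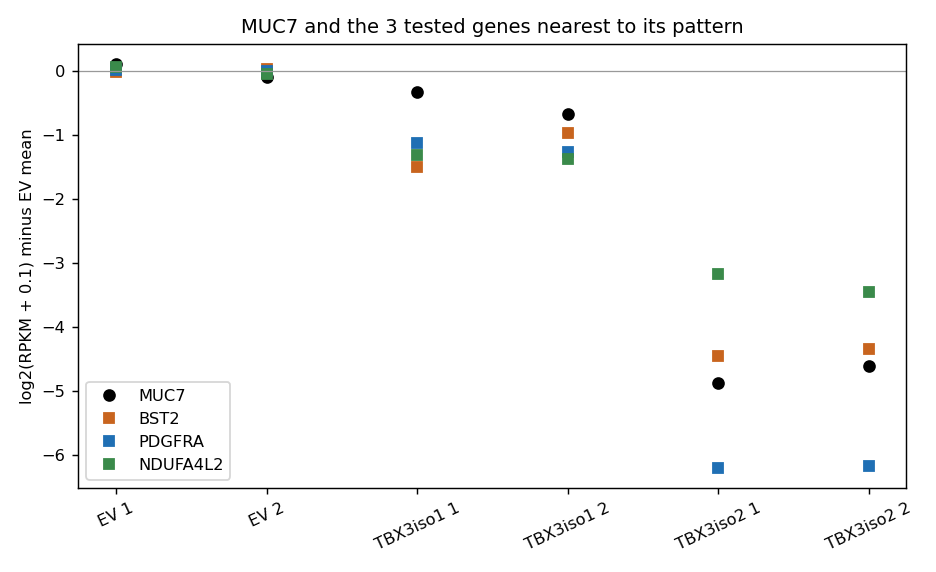
Difference of log2(RPKM + 0.1) from the EV mean in each of the 6 libraries for *MUC7* (black circles) and the 3 tested genes nearest to its pattern (coloured squares). All lie lowest in the TBX3iso2 libraries, and *MUC7* lies above the 3 others in both TBX3iso1 libraries.

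Genes next to the mucins were compared with them at the same loci. The 6 nearest genes around *MUC7* in the table were *FDCSP*, *ODAM* and *HTN3* on one side and *AMTN*, *ENAM* and *JCHAIN* on the other, all secreted proteins of saliva, teeth or immune cells. None exceeded 0.154 RPKM in any library, so among these genes only *MUC7* was above that level. Genes of this stretch without a row in the table could not be compared. Around *MUC20* and *MUC4*, *TNK2*, a tyrosine kinase 51.4 kb beyond *MUC4*, stood at 20.7 and 20.4 RPKM in EV, 13.1 and 12.1 with TBX3iso1, and 14.7 and 15.1 with TBX3iso2. It fell with TBX3iso1 (log2 -0.71, limma adjusted p = 0.000315), and its difference of -0.46 with TBX3iso2 was below the fold criterion.

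The other 5 genes around that pair behaved differently from each other. *TFRC*, the transferrin receptor, stood at 130 and 118, 149 and 134, and 113 and 95.2 RPKM and was not called. *SDHAP2* and *SDHAP1*, near-identical pseudogene copies whose reads may be shared, lay between 3.6 and 5.84 RPKM in all libraries without a call. *APOD*, which encodes apolipoprotein D, stood at 0.4 and 0.786, 0.0217 and 0.134, and 0.151 and 0.18 RPKM and was too low to be tested. *MIR570*, a short microRNA precursor row, was listed at 0.233 and 0.296 RPKM in EV and at 0 in the 4 other libraries. It was too low to be tested. Its reads were not worked out, and so short a row can reach such values on very few reads.

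Genes that build, package, regulate, cut or bind mucins were counted in 8 lists, with the 7 chosen mucins left out. The 8 also took in the lists of other mucins, of mucin-like sialoglycoproteins and of salivary gland genes, the last with 2 tested genes. The lists were drawn up with earlier results of these data known, so their shares are a description. Of 168 genes listed, 147 were in the table and 91 were tested. With TBX3iso1, 10 rose and 23 fell, 36.3% of the 91, beside 21.5% of all tested genes (7.46% higher and 14.1% lower). With TBX3iso2, 5 rose and 22 fell, 29.7% beside 21.2% (8.94% higher and 12.3% lower). Between TBX3iso2 and TBX3iso1, 6 were higher and 10 lower with TBX3iso2, 17.6% beside 6.29% (3.47% higher and 2.82% lower). The 6 higher and 10 lower genes became 3 and 10 after quantile normalization and 3 and 12 after median-ratio scaling. The median log2 differences of the 91 genes were -0.16, -0.17 and -0.03, beside -0.05, 0.00 and 0.05 over all tested genes.

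Among 12 tested GALNT enzymes, which add the first sugar of the mucin chain, 2 rose and 2 fell with TBX3iso1, and 1 rose and 1 fell with TBX3iso2. These were 33.3% and 16.7% of the enzymes, beside 21.5% and 21.2% of all tested genes. *GALNT14* averaged 13.5 ± 0.175 RPKM in EV, 24.8 ± 1.26 with TBX3iso1 and 20.2 ± 0.552 with TBX3iso2 (SD, n = 2), a rise of 0.88 on the log2 scale with TBX3iso1 (SE 0.0734, limma adjusted p = 0.000108). *GALNT18* rose with TBX3iso1 by 0.69 and with TBX3iso2 by 0.63, the latter lost without EV replicate 2 (0.57) or TBX3iso2 replicate 1 (0.58). *GALNT1* was lower with TBX3iso2, at 18.8 ± 0.757 RPKM against 32.0 ± 0.0765 in EV (log2 -0.77, limma adjusted p = 0.000153), and stood at 26.2 ± 0.356 with TBX3iso1, where its log2 difference of -0.29 was below the fold criterion. *GALNT9* fell with TBX3iso1 (log2 -0.78), a call lost after quantile normalization. *GALNT11* was the 1 enzyme called between the isoforms, lower with TBX3iso2 (log2 -0.68), which was 8.33% beside 6.29% of all tested genes.

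Of 20 tested genes that extend or cap the sugar chains, 1 rose and 7 fell with TBX3iso1, and 1 rose and 6 fell with TBX3iso2. The called shares were 40% and 35%, beside 21.5% and 21.2% of all tested genes. The core 2 branching enzymes *GCNT1* and *GCNT3* fell with both isoforms and further with TBX3iso2. *GCNT1* averaged 9.15 ± 0.566, 4.1 ± 0.000318 and 2.5 ± 0.123 RPKM in EV, TBX3iso1 and TBX3iso2 (SD, n = 2), log2 differences of -1.14 and -1.83 (SE 0.0954, limma adjusted p = 0.000108 and 1.36e-05). *GCNT3* averaged 3.94 ± 0.096, 1.35 ± 0.00367 and 0.805 ± 0.085 RPKM, differences of -1.48 and -2.16. Between the isoforms they differed by -0.69 and -0.68 (limma adjusted p = 0.00412 and 0.0124).

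Sialic acid and fucose transferases were among the genes that fell. *ST6GAL1*, which adds α2,6-linked sialic acid to N-glycans, averaged 9.72 ± 0.0567, 3.83 ± 0.312 and 2.34 ± 0.301 RPKM and differed from EV by -1.32 and -2.01. It was lower with TBX3iso2 than with TBX3iso1 (log2 -0.69), which missed the fold criterion without TBX3iso2 replicate 2 (-0.56). *ST6GALNAC2*, which sialylates the first sugar of O-glycans, differed from EV by -1.58 and -1.29. *FUT2*, the secretor fucosyltransferase, averaged 5.51 ± 0.0112, 1.83 ± 0.156 and 2.83 ± 0.307 RPKM, with differences of -1.55 and -0.94. The sulfotransferase *CHST4* went against these, at 1.02 ± 0.225, 1.18 ± 0.166 and 2.71 ± 0.281 RPKM, and rose with TBX3iso2 by 1.34 (SE 0.181, limma adjusted p = 0.000901). With TBX3iso1 the rise was in *CMAS*, which activates sialic acid (log2 0.80).

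Of 14 tested genes of mucin folding, packaging and secretion, 1 rose and 6 fell with each isoform, 50% beside 21.5% and 21.2% of all tested genes. *AGR2*, a protein disulfide isomerase needed for mucin folding, averaged 167 ± 8.25, 71.1 ± 9.74 and 82.7 ± 5.98 RPKM (SD, n = 2), differences of -1.24 and -1.02 (SE 0.11, limma adjusted p = 0.000139 and 0.000331). *SYTL2*, a RAB27 effector of vesicle docking, fell by 1.96 with TBX3iso1 and by 0.93 with TBX3iso2, and was higher with TBX3iso2 than with TBX3iso1 by 1.03. *SCIN*, an actin-severing protein of secretory cells, differed from EV by -1.53 and -1.12, and *MARCKS*, which acts in granule release, by -0.87 and -1.09. *CREB3L1*, a transcription factor of secretory capacity, rose with both isoforms, by 1.30 and 0.63, and was lower with TBX3iso2 than with TBX3iso1 (-0.67). *ZG16B*, a lectin-like secreted protein, was lower with TBX3iso2 than with TBX3iso1 (log2 -0.60), a call lost in 6 of 13 alternatives. Leaving out EV replicate 1 or 2 (-0.60), TBX3iso1 replicate 2 (-0.54) or TBX3iso2 replicate 1 (-0.43) was among them.

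Of 14 tested transcription factors linked to mucin genes, 3 fell with TBX3iso1 and 4 with TBX3iso2. Between the isoforms 1 was higher and 1 lower with TBX3iso2, 14.3% beside 6.29% of all tested genes. The called shares against EV were 21.4% with TBX3iso1, about that of all tested genes (21.5%), and 28.6% with TBX3iso2, beside 21.2%. *ELF3*, an epithelial ETS factor, averaged 51.2 ± 1.68, 11.4 ± 0.541 and 12.0 ± 2.1 RPKM (SD, n = 2), with differences of -2.15 and -2.10 (SE 0.117, limma adjusted p = 1.69e-05 and 1.86e-05). *SPDEF*, an ETS factor of goblet and luminal cells, averaged 24.7 ± 1.37, 6.47 ± 0.00611 and 15.4 ± 1.17 RPKM. It fell by 1.92 with TBX3iso1 and by 0.68 with TBX3iso2, and was higher with TBX3iso2 than with TBX3iso1 by 1.24 (limma adjusted p = 0.000224). *FOXA1*, a luminal pioneer factor, fell with TBX3iso1 (-0.86), and its difference of -0.33 with TBX3iso2 was below the fold criterion. *GATA3*, another luminal factor, showed the opposite preference, at 4.54 ± 0.0682, 4.35 ± 0.0832 and 2.11 ± 0.11 RPKM, a difference of -1.07 with TBX3iso2 and of -1.01 between TBX3iso2 and TBX3iso1 (limma adjusted p = 0.000155 and 0.000998). *KLF5* fell with TBX3iso2 (-0.70), which was lost without TBX3iso2 replicate 2 (-0.52).

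Of 20 tested genes that shed mucins or bind them, 3 rose and 3 fell with TBX3iso1, and 1 rose and 3 fell with TBX3iso2. That was 30% and 20% of them, beside 21.5% and 21.2% of all tested genes. The metalloproteases *MMP9* and *MMP14*, the latter a MUC1 sheddase, rose with TBX3iso1 by 1.69 and 0.96, and *MMP14* with TBX3iso2 by 0.73. *MMP9* averaged 2.35 ± 0.426, 7.76 ± 0.165 and 1.99 ± 0.000573 RPKM (SD, n = 2) and was lower with TBX3iso2 than with TBX3iso1 (log2 -1.91, limma adjusted p = 0.000228). *ADAM8* was lower with TBX3iso2 than with TBX3iso1 (-0.72), a call lost in 5 of 12 alternatives, among them the omission of EV replicate 1 or 2 (-0.72) and of TBX3iso1 replicate 1 (-0.55).

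Among the partners of membrane mucins, *LGALS3* and *ERBB3* fell with both isoforms, *ERBB2* with TBX3iso2 and *MSLN* with TBX3iso1. *LGALS3*, the lectin galectin-3 that binds MUC1, averaged 230 ± 10.4, 114 ± 13.0 and 128 ± 4.77 RPKM (SD, n = 2), differences of -1.02 and -0.84 (SE 0.1, limma adjusted p = 0.000225 and 0.000519). *ERBB3* differed from EV by -0.90 and -0.94, and *MSLN*, mesothelin, by -0.71 and -0.19, the latter not called. *ERBB2*, the receptor that associates with MUC4, averaged 434 ± 14.8, 298 ± 2.32 and 258 ± 2.69 RPKM and fell with TBX3iso2 by 0.75, its difference of -0.54 with TBX3iso1 being below the fold criterion. Among 7 tested mucin-like sialoglycoproteins, 3 rose and 1 fell with TBX3iso1, and 1 rose and 1 fell with TBX3iso2. Of these few genes 57.1% and 28.6% were called, beside 21.5% and 21.2% of all tested genes. *PODXL2*, endoglycan, averaged 1.97 ± 0.148, 7.17 ± 0.671 and 1.48 ± 0.21 RPKM, a rise of 1.81 with TBX3iso1 (limma adjusted p = 6.68e-05) and a difference of -2.20 between TBX3iso2 and TBX3iso1. *PODXL*, podocalyxin, rose with TBX3iso1 (1.11), *MCAM* rose with both isoforms (0.63 and 0.81), and the selectin ligand *SELPLG* fell with both isoforms (-0.99 and -1.03).

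Salivary gland genes other than mucins were mostly too low to test. Of 26 listed, 15 were in the table and 2 were tested, *PRH1* and *PRR4*. Neither was called by limma in any comparison, and at an unadjusted p below 0.05 there were 0, 1 and 1. *PRR4* averaged 0.861 ± 0.00911 RPKM in EV, 0.858 ± 0.316 with TBX3iso1 and 1.37 ± 0.121 with TBX3iso2 (SD, n = 2).

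**Figure D4:**
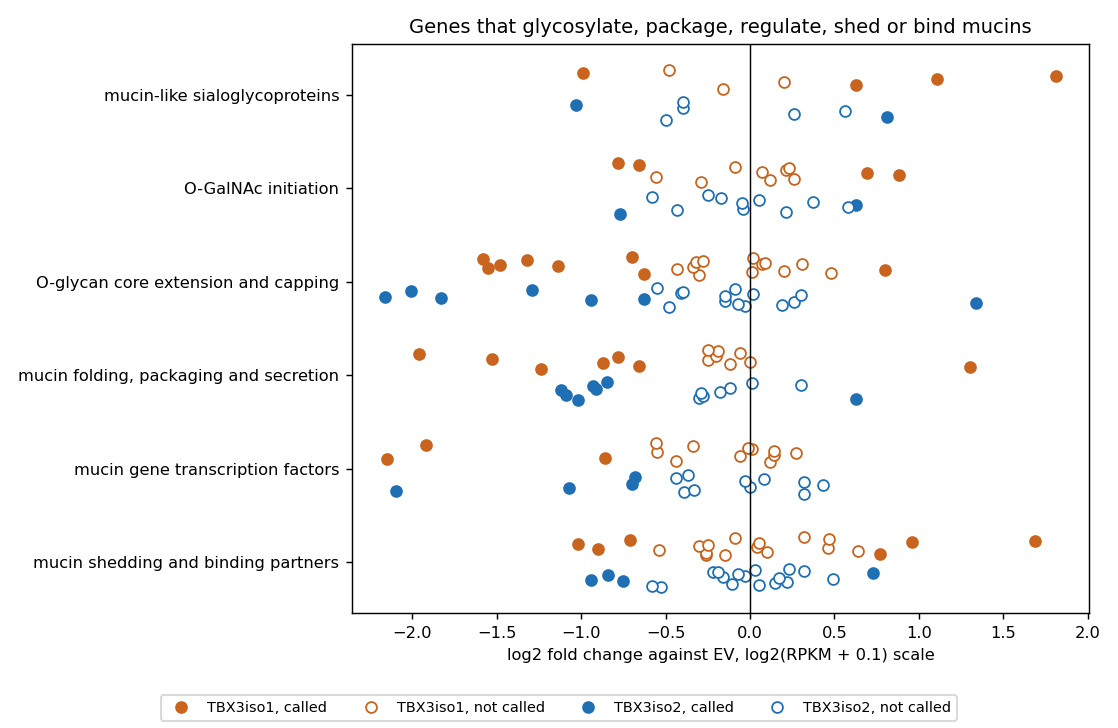
Log2 fold changes against EV on the log2(RPKM + 0.1) scale for the tested genes of 6 lists, with TBX3iso1 in orange above TBX3iso2 in blue in each row and filled points for called genes. Filled points of chain extension, packaging and transcription factors lie mostly left of 0, while initiation enzymes and sialoglycoproteins lie on both sides, with *ELF3* the lowest transcription factor at -2.15 and -2.10.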

How the data were processed

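RNA-Seq libraries of 21NT cells carrying EV, TBX3iso1 or TBX3iso2 (2 each) were analysed from the deposited table. The authors prepared stranded mRNA libraries, aligned reads to hg19 with TopHat and computed RPKM in Partek Genomics Suite, as given in the submitters' processing notes and the methods. Tool versions and the gene annotation are not given in the sources used here. Deposited values are RPKM on the linear scale with 1 row of alignment totals, and no gene counts, so precision was taken from the spread between replicates. Every sample column was used. The study compared each isoform with EV by analysis of variance, and here limma 3.58.1 in R 4.3.3 was fitted to log2(RPKM + 0.1) of genes that averaged 0.5 RPKM or more over all 6 libraries. The model had 1 mean per line, variances moderated by empirical Bayes with a mean-dependent trend, and p-values adjusted by Benjamini-Hochberg. The fit was tested on simulated data.

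The mucins, gene lists and alternatives were chosen with earlier results of these data known. Named genes were the mucins, every other mucin in the table, the TBX3 check, at most 3 called genes per list and comparison with the largest differences, the 3 genes nearest in pattern to each tested mucin, and the 3 nearest genes on each side of *MUC7* and of the *MUC4* and *MUC20* pair. *PRH1*, *PRR4*, *CMAS*, *MSLN* and the markers *PECAM1*, *CD68*, *CD14* and *COL1A1* were named after their values were seen. Alternatives changed the pseudocount, the filter, the scaling, the replicate block or the libraries included. Promoters were read from RefSeq (GRCh38.p14) and gene positions from GENCODE for GRCh37.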

Additional observations from a re-analysis of the deposited data

How the results depend on the processing

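Of 704 values recomputed for 55 single-gene results, 659 kept their direction and call, 31 lost a call, 14 values of *MUC1* and *MUC7* moved by more than the replicate spread, and 0 reversed. *MUC1* and *MUC7* met the criteria in the same comparisons in every alternative that tested them. As both were chosen on these comparisons, this is a description and not support. *MUC7* was not tested at a mean of 2 RPKM, since its mean was 1.62. Of 49 other single-gene calls, 11 were lost under at least 1 alternative, 10 of them with 1 RPKM added.

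With 1 RPKM added, 1812 genes were called for TBX3iso1 in place of 2757, 419 between the isoforms in place of 805, and 7 list genes between the isoforms in place of 16. At a mean of 2 RPKM, 504 genes were called between the isoforms. The causes were not tested, although fewer genes enter at 2 RPKM. Leaving out 1 library gave 2295 to 3068 genes for TBX3iso1, 2304 to 3168 for TBX3iso2 and 623 to 919 between the isoforms, and 33 to 36, 28 to 30 and 12 to 17 list genes. The balance of directions depended on scaling. For TBX3iso1, 955 genes were higher and 1802 lower, against 1259 and 1313 after quantile normalization and 1263 and 1449 after median-ratio scaling. For TBX3iso2, 1145 were higher and 1575 lower, against 1315 and 1338, and 1276 and 1459. Between the isoforms 444 were higher and 361 lower, against 351 and 435, and 351 and 440.

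The labels number the libraries alike in each line but do not say that a number marks a shared culture or day. Replicate differences correlated across genes at 0.22 (EV and TBX3iso1), 0.114 (EV and TBX3iso2) and 0.499 (TBX3iso1 and TBX3iso2). With the replicate number as a block, 2838, 2795 and 900 genes and 34, 28 and 17 list genes were called, and no single-gene call changed. The depth limits *MUC4*, *MUC13*, *MUC16* and *MUC20*, which rest on at most 107 reads in a library.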
